A study of Mus musculus with 6 samples.

Results

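A stretch of mouse chromosome 2 between 117 and 130 Mb (build mm10) was examined for open chromatin in urothelial cells with and without Stag2. It holds Eif2ak4, Bub1b, Pak6, B2m and Bcl2l11. Open regions were built from the 100000 intervals of highest fold (enrichment over the local background, as the authors' peak caller gave it) in each of 6 libraries, merged where they overlapped by at least 1 bp. The stretch held 1040 of the 138957 regions, and the rest of chromosome 2 held 9538. The stretch was chosen by the KO-WT differences in rank at Eif2ak4 and Bub1b in these same libraries, so its KO-WT values are given as a description. Counts of its regions past a threshold are set beside the share of all regions past it, and nothing is read from them.

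The libraries were ATAC-seq (a transposase inserts adapters into accessible DNA) of GFP+, DAPI- cells sorted from peeled mouse urothelium, the lining of the bladder. There were 3 libraries of the genotype labelled Stag2-WT and 3 of the genotype labelled Stag2-KO, titled biological replicates 1 to 3 in each group and all from batch 1. Mice of both groups received TMX in the diet and were labelled as 1 week after induction, and 50000 viable GFP+ cells were used per condition. The TMX was given to the WT group too. The sources used here do not give the allele that was deleted, the driver of recombination and GFP, or the age and number of mice per library, so the spread between libraries may hold technical as well as animal differences. The peak lists cannot show whether an exon of Stag2 was lost. The region at the Stag2 start was present in all 6 lists. It ranked 29586, 34076 and 28720 in WT and 16287, 20829 and 26328.5 in KO.

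Stag2 is a subunit gene of cohesin, a ring-shaped complex that tethers sister chromatids and shapes chromatin loops. Bub1b encodes BubR1 and Bub1 its partner kinase, both parts of the spindle assembly checkpoint, which delays anaphase until every kinetochore is attached. In resting cells the DREAM complex is known to hold such genes silent through a promoter element, the cell cycle genes homology region (CHR, letters TTTGAA or TTCGAA). Many of these promoters also carry CCAAT boxes, bound by NF-Y. The urothelium is a slowly renewing epithelium in which most cells rest.

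The promoters of Bub1b, Bub1 and Eif2ak4 are printed because large differences in rank between the genotypes lay at the starts of the first 2 genes and inside the third. Each is the run of 250 bases before the start site in RefSeq (GRCm38.p6, the coordinates of mm10), 5′ to 3′ on the gene's strand. Capitals mark CCAAT or its complement ATTGG.
Bub1b (chr2:118597961-118598210, plus strand): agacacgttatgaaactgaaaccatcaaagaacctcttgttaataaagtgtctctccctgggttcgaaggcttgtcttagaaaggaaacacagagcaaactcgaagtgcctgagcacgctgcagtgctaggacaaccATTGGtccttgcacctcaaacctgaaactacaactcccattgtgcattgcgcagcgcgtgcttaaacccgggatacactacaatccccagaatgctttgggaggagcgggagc
Bub1 (chr2:127831860-127832109, minus strand): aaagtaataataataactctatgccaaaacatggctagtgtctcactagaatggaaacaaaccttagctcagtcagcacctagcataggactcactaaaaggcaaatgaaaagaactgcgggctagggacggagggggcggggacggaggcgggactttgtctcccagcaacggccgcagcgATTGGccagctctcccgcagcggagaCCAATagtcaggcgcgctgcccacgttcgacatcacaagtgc
Eif2ak4 (chr2:118388367-118388616, plus strand): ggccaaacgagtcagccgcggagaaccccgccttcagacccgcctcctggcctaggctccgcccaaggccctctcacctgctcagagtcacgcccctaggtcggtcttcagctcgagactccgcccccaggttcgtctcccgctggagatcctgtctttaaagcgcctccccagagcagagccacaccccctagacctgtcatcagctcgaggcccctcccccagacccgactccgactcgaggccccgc
The Eif2ak4 promoter held no match to CCAAT on either strand. It was also the richest of the 3 in G and C, at 67.2%, against 53.6% for Bub1 and 49.2% for Bub1b.

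Windows of 30 bases around the CHR are shown for the cell division genes of the stretch in which a script found one just after the start site. Capitals mark the CHR (TTTGAA or TTCGAA, or TTCAAA where TTTGAA lies on the other strand).
Bub1b (chr2:118598231-118598260, plus strand): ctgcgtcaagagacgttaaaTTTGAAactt
Knl1 (chr2:119047138-119047167, plus strand): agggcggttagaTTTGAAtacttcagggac
Ckap2l (chr2:129297163-129297192, minus strand): gtactagaacaaggcgcgcccTTTGAAgga
Oip5 (chr2:119618456-119618485, minus strand): aagaggcgcgcgcTTCAAAgaaatatggcg
Bub1 (chr2:127831828-127831857, minus strand): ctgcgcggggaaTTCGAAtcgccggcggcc
The CHR began 40 bases after the start site in Bub1b, 31 in Knl1, 41 in Ckap2l, 33 in Oip5 and 14 in Bub1. Knl1 and Oip5 encode kinetochore and centromere proteins, and Ckap2l a spindle protein. Over windows from 250 bases before to 50 after the start, and on both strands, TTTGAA was found in 4 of the 13 division genes of the stretch (Bub1b, Ckap2l, Knl1 and Oip5) and TTCGAA in 3 (Bub1, Bub1b and Cep152). The same searches matched 17.89% and 1.562% of all 32851 promoters, and 16.54% and 3.008% of the 266 promoters of the stretch. CCAAT was found in 5 of the 13, against 37.41% of all promoters and 37.59% of those of the stretch. A gene was counted if any of its promoters matched, whereas the shares are of single promoters, so the 2 are not of the same unit. A match is a description of letters and was not tested as a bound site.

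The lists differed in length and the number of reads is unknown, so each region was given its rank by fold within a library's list, and a region absent from the list was placed 1 rank past its end. The gain is the mean −log2 rank in KO minus that in WT, so that a gain of 1 is a rank better by a factor of 2 in KO. Gains were fitted with limma over the 100565 regions with an interval in at least 3 libraries, of which 754 lay in the stretch, and are given ± the standard error of that fit (n = 3 and 3). In a mixed cell sample, fewer cells with a site open and weaker opening in each cell cannot be told apart. The lists held 181987 to 299636 peaks and 149153 to 260462 distinct intervals. The fold at the end of the shortened list, where the rule drew its limit, was 3.65, 5.30 and 4.05 in WT and 4.10, 4.47 and 3.93 in KO. In the stretch, the last interval inside the limit and the first one outside had folds of 3.66 and 3.62 in WT replicate 1, and the widest step, in KO replicate 1, went from 4.12 to 4.07. At the edges of the stretch, the nearest region outside lay at chr2:116989353-116989633 with a gain of 0.23 ± 0.18, and the nearest inside at chr2:117017811-117018846 with −0.54 ± 0.30. At the other edge the nearest inside lay at chr2:129954598-129955590 with 0.69 ± 1.04 and the nearest outside at chr2:130027881-130028432, within Tgm3, with −0.16 ± 0.32.

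The library labelled KO replicate 3 stood apart from the other KO libraries. On the rest of chromosome 2, the Spearman correlation of its ranks across 6907 regions was 0.783 and 0.783 with KO replicates 1 and 2, and 0.834, 0.855 and 0.897 with WT replicates 1 to 3. In the stretch, across 754 regions, it was 0.805 and 0.831 with the other KO libraries and 0.786, 0.781 and 0.820 with the WT libraries. On the rest of the chromosome every WT value was above both KO values, and in the stretch the mean with KO was above that with WT, while WT replicate 3 still lay above KO replicate 1. When all chromosomes were divided into windows of 13 Mb with at least 200 tested regions, the mean correlation of KO replicate 3 was higher with KO than with WT in 4 of 179 windows, and the stretch (0.818 with KO and 0.796 with WT) was the third in that order. On chromosome 2 it was 1 of 14. These correlations are across regions, which share library, depth and base composition, and they are given as a description. Since the KO libraries entered the choice of the stretch, they are not independent of it. The peak lists cannot check the genotype of a library, and the strain of the mice is not given in the sources used here. Whether the label and the strain background of KO replicate 3 match those of the other KO libraries was therefore not tested, and every KO-WT value below includes this library unless its absence is stated.

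Of the cell type markers, 10 of 15 urothelial genes had a region at the gene start in all 6 libraries and 14 in at least 1, all but Trp63. Of 8 fibroblast and smooth muscle genes, 3 were open in all libraries and 6 in any, with none at Pdgfra or Lum. Of 5 endothelial genes, 0 were open in all and 4 in any, and of 6 leukocyte genes 2 were open in all, and Ptprc, Cd3e and Lyz2 were among those with no region. The summed fold of the urothelial list ranged from 104 to 139 in WT and from 127 to 191 in KO. The corresponding ranges were 49.7 to 60.2 and 39.3 to 65.0 for fibroblasts and smooth muscle, 0 to 13.8 and 4.19 to 22.3 for endothelium, and 19.6 to 31.7 and 19.2 to 24.1 for leukocytes. Folds depend on depth, and at the end of the shortened list they were 3.65 in WT replicate 1 and 5.30 in WT replicate 2. These sums are therefore no comparison of the genotypes. The part of these cell types in the differences below was not tested.

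Irrespective of genotype, the stretch was a dense and gene-rich part of the chromosome. It held 56.3 ± 1.66 intervals per Mb (SD, n = 6 libraries) against 40.6 ± 0.392 on the rest of chromosome 2. The share of its intervals within 500 bp of either end of a protein-coding gene was 19.0% ± 0.522 against 13.4% ± 0.435. Its intervals had a median width of 387 bp against 366 bp and a median fold of 9.89 against 9.19, and 25.5% against 22.7% of them held more than 1 summit. All 5 differences were positive in 6 of 6 libraries (exact sign-flip permutation test over libraries, two-sided p = 0.03125 for each, the smallest p that 6 libraries allow, and 0.03125 after Benjamini-Hochberg adjustment over the 5). The 6 libraries map the same genome, so this test speaks only for the agreement between them. Of the 754 tested regions, 148 lay within 500 bp of a gene start (19.6%, against 14.1% on the rest of the chromosome), 325 within a gene body and 281 between genes. Among 170 genes of the stretch with a promoter in RefSeq, the 131 whose start was open in all 6 libraries had a median of 22 CpG and 62.7% G and C in the 300-base window. The 25 with no region in any library had 4 and 50.7%.

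The best ranked site of the stretch was the start of Blvra, which encodes biliverdin reductase. Its region at chr2:127070444-127070947 ranked 174, 429 and 109.5 in WT and 152, 763 and 72 in KO. A region between genes at chr2:117838379-117838989, 272887 bp from Thbs1, ranked 525, 383 and 89 in WT and 1021, 1168 and 350 in KO. Another at chr2:127182596-127183321, 2963 bp from 1810024B03Rik, ranked 442, 384 and 200 in WT and 1181, 702 and 475 in KO. The ranks of both genotypes overlapped at Blvra and at the first of these, whereas at the last every KO rank was worse than every WT rank. Without KO replicate 3 this also held at the region 272887 bp from Thbs1. At such ranks a small step in fold moves the −log2 rank far, and the gains of −0.01 ± 1.44, −1.51 ± 1.15 and −1.18 ± 1.01 have wide errors.

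The differences between KO and WT had no common direction along the stretch. Of the 754 tested regions, 367 ranked lower in KO and 387 higher, with a median gain of 0.02 and quartiles of −0.37 and 0.39. The share lower, 48.7%, was 48.7% on the rest of the chromosome and 48.5% over all tested regions. The difference in median gain between the stretch and the rest of the chromosome was 0.0017. Without the Eif2ak4 and Bub1b regions that led to the choice, 751 regions had a median gain of 0.02 and 48.6% were lower. The share lower in the stretch was 40.8% with WT replicate 1 left out and 54.4% with KO replicate 1 left out.

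The 3 KO ranks and the 3 WT ranks failed to overlap at a larger share of regions in the stretch than on the rest of the chromosome, in both directions. At 99 regions every KO rank was worse than every WT rank (13.1%, against 8.18% of all tested regions), and at 118 every KO rank was better (15.6%, against 11.4%). Together they were 28.8% of the tested regions of the stretch, against 19.6% on the rest of chromosome 2 and 19.6% overall. Of these 217 regions, 24 had an interval in all WT lists and no KO list, and 28 the reverse, and such regions had to differ to pass the filter. Among the 468 regions with an interval in all 6 libraries, 25.6% did not overlap, against 18.3% on the rest of the chromosome. Gains of −1 or below were found at 53 regions (7.03%, against 4.74% overall) and of 1 or above at 38 (5.04%, against 3.31%). The median size of a gain, whichever its sign, was 0.382 in the stretch and 0.302 on the rest of the chromosome. The median SD within a genotype was 0.302 in WT and 0.346 in KO, against 0.299 and 0.327. This contrast led to the choice of the stretch, and these shares are not a test of it.

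With KO replicate 3 left out, the share without overlap was 49.3% in the stretch and 43.9% on the rest of the chromosome. On the regions of the main analysis, 167 were then lower (22.1%, against 20.8% of all) and 198 higher (26.3%, against 22.7%), so that the excess lay closer to the background. With WT replicate 2 left out the shares were 44.6% and 38.6%, and with WT replicate 1 left out 39.3% and 29.2%. Leaving out WT replicate 3, KO replicate 1 or KO replicate 2 gave 32.0%, 31.3% and 35.5% in the stretch. On the rest of the chromosome these shares were 24.98%, 23.07% and 26.83%. With a library left out there are fewer ranks that could overlap. These shares are therefore to be read against the rest of the chromosome, and not against the 28.8% of all 6 libraries. Among 14 windows of 13 Mb on chromosome 2 the stretch was first by this share, followed by its 2 neighbours, 130 to 143 Mb with 24.2% and 104 to 117 Mb with 23.6%. Among the 179 windows of all chromosomes it was also first, ahead of chromosome 5 at 13 to 26 Mb with 28.0%. It was 85th of 179 by median gain and 12th by the median size of the gain. These orders are for all 6 libraries. The stretch was chosen by this contrast, and the windows have its length, with 1 laid exactly on its bounds. Its place among them is therefore no test.

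**Figure D1:**
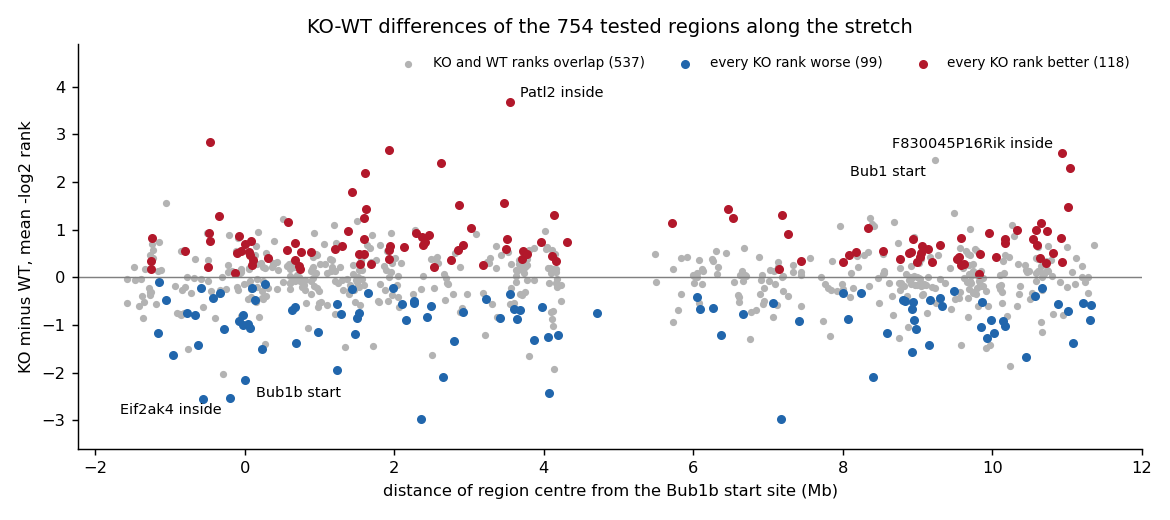
Gain (mean −log2 rank in KO minus WT, vertical axis) of the 754 tested regions against the distance of each region's centre from the Bub1b start site in Mb. Blue points are the 99 regions at which every KO rank was worse, red points the 118 at which every KO rank was better, grey points the 537 with overlapping ranks, and blue and red points lie side by side over the whole length.

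**Figure D2:**
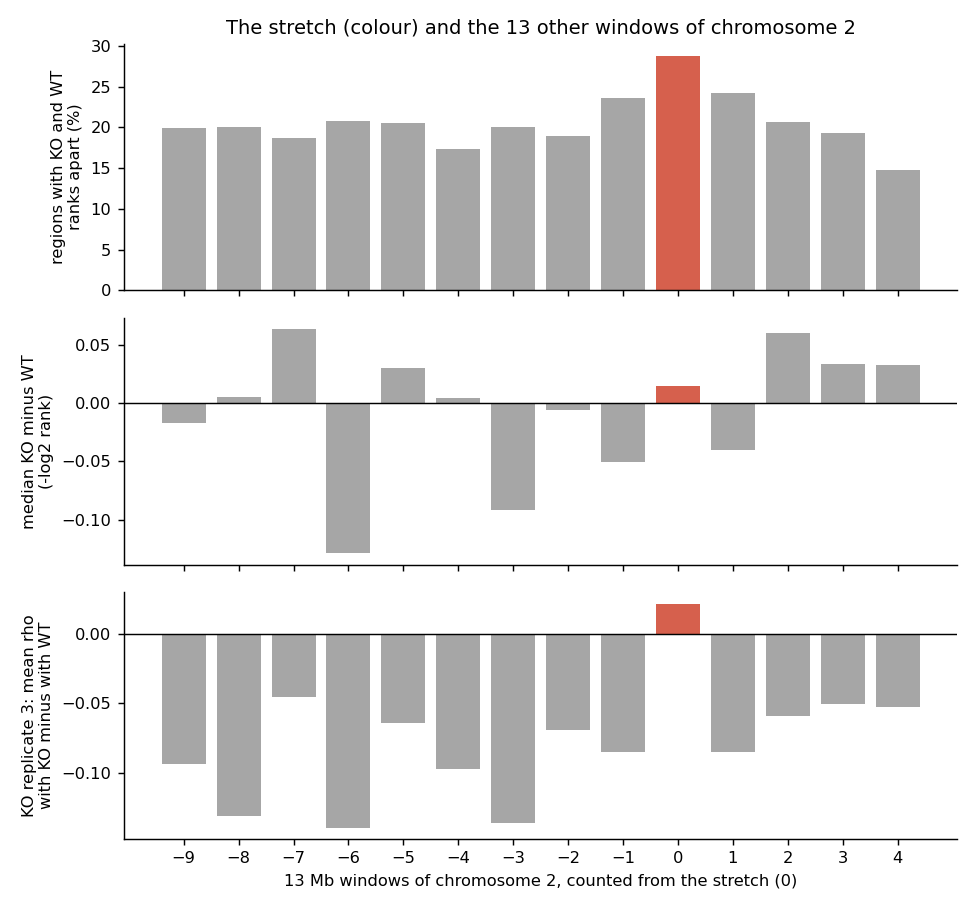
The stretch (coloured, 0) and the 13 other windows of 13 Mb on chromosome 2, by the share of tested regions whose KO and WT ranks did not overlap (percent), by median gain (−log2 rank) and by the mean Spearman rho of KO replicate 3 with the other KO libraries minus that with the WT libraries. The stretch has the highest share, 28.8%, a median gain near 0 and the one positive value in the lowest panel.

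In the fit over all 100565 regions, 1 region of the stretch was lower in KO and 2 were higher at an adjusted p below 0.05 (limma with Benjamini-Hochberg adjustment), where 0.00895% and 0.0119% of all tested regions were called, or 0.0209% in either direction. The lower one is the region inside Eif2ak4 that led to the choice of the stretch, and these counts are no test of the stretch. With the replicate number as a block, the 2 higher regions stayed past the threshold and the lower one did not, while the calls over all regions went from 9 to 16 lower and from 12 to 16 higher. Leaving out KO replicate 3 gave 21 lower and 10 higher calls among 683 tested regions of the stretch (3.07% and 1.46%), against 1.68% and 0.891% of all regions. Of these regions, 3 lay at gene starts (Inafm2, Secisbp2l and Bub1), 16 in gene bodies and 12 between genes. Leaving out WT replicate 1, 2 or 3 or KO replicate 1 gave 0 calls in the stretch, and leaving out KO replicate 2 gave 1 higher call, against 0.0042% of all regions.

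The lower region lay within Eif2ak4, which encodes GCN2, the kinase that senses uncharged tRNA and phosphorylates eIF2α. The region at chr2:118402205-118402885, 13093 bp from the nearest gene start, ranked 17021, 19524 and 11252 in WT. In KO replicate 1 it was outside the list, with a fold of 3.79, and it ranked 78974 and 91882.5 in KO replicates 2 and 3. The folds were 14.2, 22.2 and 19.7 in WT and 6.24 and 4.31 in KO replicates 2 and 3. The genotypes lay far apart, with a gain of −2.53 ± 0.32. The start of the same gene, at chr2:118388097-118389278, ranked 11954, 19883 and 14270 in WT and 5665, 14736 and 6360.5 in KO, and the ranks overlapped with a gain of 0.89 ± 0.49. Of the 4 tested regions of Eif2ak4, 1 was lower and 3 were higher.

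The higher regions lay within Patl2 and F830045P16Rik. Patl2 encodes an RNA-binding repressor of translation known from oocytes, and in RefSeq its span includes B2m. The region at chr2:122137977-122138474 lay 9213 bp from the nearest gene start, which is that of B2m. It was outside the lists of WT replicates 1 and 2, ranked 85401 in WT replicate 3, and ranked 12051, 3459 and 9736.5 in KO. In the whole lists its fold was 2.79, 5.02 and 4.93 in WT and 20.04, 35.3 and 20.2 in KO, and the gain was 3.68 ± 0.46. The region within F830045P16Rik, at chr2:129529215-129529825, had an interval in no shortened WT list and ranked 16828, 15742 and 16612 in KO, with a gain of 2.61 ± 0.27. In the whole lists, WT replicate 2 had an interval there with a fold of 3.80. The other WT libraries had none.

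Bub1b and Bub1 had gains of opposite sign. The Bub1b start, at chr2:118597987-118598591, ranked 2405, 5929 and 3759 in WT and 24553, 11390 and 17145 in KO, with no overlap and a gain of −2.16 ± 0.52. It covered the CHR printed above and all but the outermost bases of the printed promoter. Its folds were 23.0, 31.5 and 25.1 in WT and 14.2, 27.1 and 16.6 in KO, so that by fold itself KO replicate 2 lay among the WT libraries. The summit lay 39, 43 and 41 bases before the start site in WT and 21, 13 and 18 bases before it in KO. Further into Bub1b, the region at chr2:118641194-118641521 ranked 70119, 38050 and 49150 in WT and was in no KO list, while that at chr2:118601901-118602204 was in no WT list and ranked 44951.5, 61036 and 84911 in KO. The Bub1 start, at chr2:127831443-127832511, ranked 26325, 9882.5 and 21198.5 in WT and 1491, 1864 and 11713.5 in KO. Its gain was 2.47 ± 0.77, and KO replicate 3 ranked below WT replicate 2, so the genotypes overlapped. Without KO replicate 3 its gain was 3.41. The Bub1 summit lay 41 to 51 bases before the start site in all 6 libraries.

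**Figure D3:**
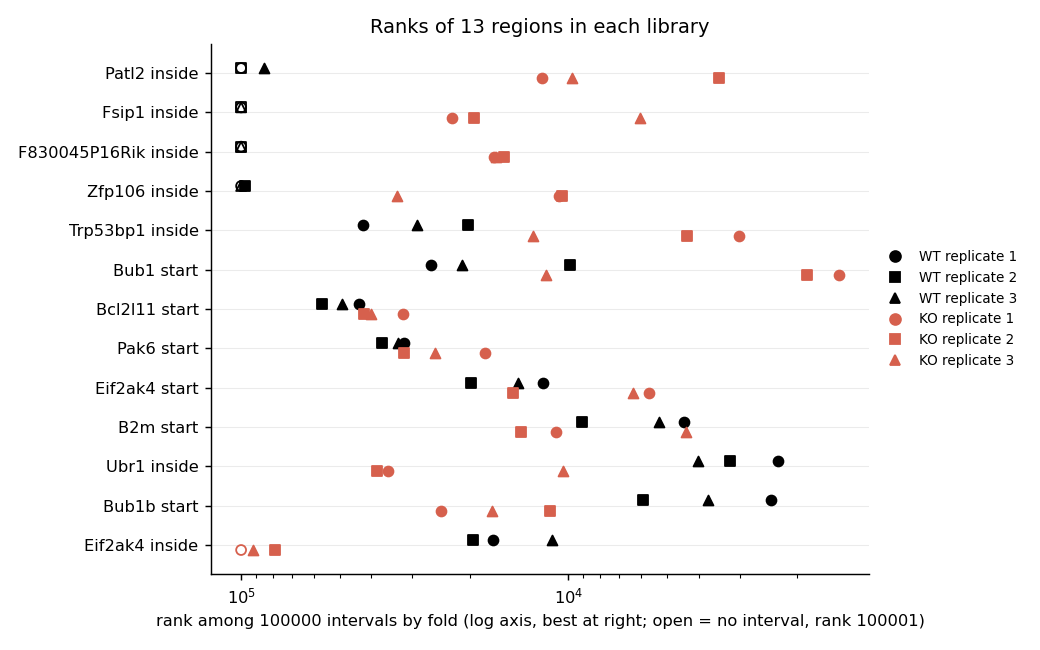
Rank by fold (horizontal log axis, best at right) of 13 regions in each library, with WT in black, KO in red and replicates 1 to 3 as circles, squares and triangles. Open symbols mark libraries without an interval, placed 1 rank past the list. The genotypes are apart at the Eif2ak4 inner region, the Bub1b start and the inner regions of Patl2, Fsip1 and F830045P16Rik, and they overlap at the starts of Bub1, Eif2ak4 and B2m.

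The neighbourhood from Eif2ak4 to the end of Pak6, which also holds Bmf and Bub1b, had 35 tested regions in 310 kb. Of these 17 were lower and 18 higher in KO, and 8 in each direction did not overlap, where 8.18% (lower) and 11.4% (higher) of all tested regions did not. These 35 include the regions that led to the choice of the stretch. Neighbouring regions had the same direction in 17 of 34 pairs. Pak6 encodes a p21-activated kinase, and its start at chr2:118663397-118664479 ranked 31774, 37224 and 33109 in WT and 17992.5, 31716 and 25636 in KO. All KO ranks were better there, though those of KO replicate 2 and WT replicate 1 were nearly equal, with a gain of 0.47 ± 0.34. The gain was 1.17 when ranked by −log10 p and 0.25 without KO replicate 1. Of the 7 regions of Pak6, 5 were lower and 2 higher. The B2m start, the promoter of the light chain of MHC class I, ranked 4447, 9064 and 5283 in WT and 10947, 13957 and 4379 in KO, with a gain of −0.55 ± 0.57. The overlap came from KO replicate 3 alone, and without it both KO ranks were worse than every WT rank, with a gain of −1.05. The B2m gain was −1.59 ranked by −log10 p, −0.21 without KO replicate 2, −0.34 without WT replicate 1, −0.85 without WT replicate 2 and 1.40, of the opposite sign, with the gene-end share of each list as a covariate. The Bcl2l11 start ranked 43573, 56794 and 49220 in WT and 31994.5, 41997 and 40105 in KO. Bcl2l11 encodes BIM, an activator of mitochondrial cell death, and its KO ranks were all better, with a gain of 0.39 ± 0.29, which was 1.15 when ranked by −log10 p.

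Other large gains lay inside genes as well. A region within Ubr1, which encodes a ubiquitin ligase of the N-degron pathway, had the lowest gain of the regions without overlap. At chr2:120959305-120959803 it ranked 2285, 3215 and 4008 in WT and 35648, 38577 and 10382 in KO, with a gain of −2.97 ± 0.58. A region within Secisbp2l at chr2:125765077-125765398 had a gain of −2.97 ± 0.99, and its WT ranks spread widely, at 20058, 606 and 4985. Between genes, chr2:118044573-118045166, 66710 bp from Thbs1, had −2.56 ± 0.64 and chr2:122666283-122666716, 14517 bp from Slc30a4, had −2.43 ± 0.42. In the other direction, a region within Trp53bp1, the gene of a DNA break repair protein, ranked 42544.5, 20278.5 and 29076.5 in WT and 3008, 4339 and 12853 in KO, with a gain of 2.41 ± 0.57. Regions within Fsip1 (2.85 ± 0.46) and Zfp106 (2.67 ± 0.44) had an interval in all KO libraries. In the shortened WT lists, the first had none, and the second had 1, in WT replicate 2 at rank 96983. In the whole lists, the Fsip1 region had a fold of 3.26 in WT replicate 2. The Zfp106 region had 5.56 in WT replicate 2 and 3.67 in WT replicate 3.

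Regions listed in 1 genotype alone were found more often in the stretch than overall. There were 24 with an interval in every WT list and no KO list (2.31% of the 1040 regions, against 0.893% of all regions), and 28 of the reverse kind (2.69%, against 0.996%). None of them lay at a gene start, 18 and 22 lay in gene bodies and 6 and 6 between genes. When the whole lists of the other genotype were searched, 7 and 12 were still absent. Well ranked WT-only regions lay within Chp1 (ranks 58343, 48583 and 32481), which encodes a partner of sodium-proton exchangers, and Gpr176 (41789.5, 54248 and 47206), an orphan receptor gene. The best ranked KO-only regions lay within F830045P16Rik and Fsip1, given above, and within Pla2g4e, a cytosolic phospholipase, with ranks 26498.5, 49985.5 and 38610. Pla2g4e held 9 tested regions, of which 2 were lower and 7 higher. Without overlap were 1 of the lower and 5 of the higher, where 8.18% (lower) and 11.4% (higher) of all tested regions were. These counts were picked out after the values were seen.

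Higher and lower regions were mixed along the stretch, and neighbours shared a direction about as often as on the rest of the chromosome. Neighbouring tested regions, with a median gap of 8695 bp, had the same direction in 362 of 753 pairs (48.1%), against 49.4% on the rest of chromosome 2. The share was 47.2% against 46.1% for pairs less than 2 kb apart, 48.7% against 47.3% at 2 to 10 kb, 47.4% against 52.8% at 10 to 50 kb and 51.2% against 52.2% beyond. Where both regions of a pair were without overlap, 36 of 68 pairs had 1 direction, against 141 of 258 on the rest of the chromosome. By gap this was 6 of 13 against 23 of 50 under 2 kb and 17 of 24 against 46 of 82 at 2 to 10 kb. At 10 to 50 kb it was 11 of 27 against 57 of 103, and beyond that 2 of 4 against 15 of 23. A region without overlap had its nearest such neighbour in its own direction in 102 of 217 cases (47.0%, against 55.1% on the rest of the chromosome), which was 35.4% of the lower ones (against 46.2%) and 56.8% of the higher ones (against 62.0%). Higher regions lay a median of 20639.8 bp from another higher and 35664.2 bp from a lower one, against 29542.5 and 56050.8 bp on the rest of the chromosome. Lower regions lay 49482.5 bp from another lower and 29743.5 bp from a higher one, against 56127 and 52413.5 bp. None of these shares was tested. The 754 regions formed 392 runs of 1 direction. The longest run, of 11 higher regions, covered chr2:129285365-129393905 with Ckap2l and the interleukin genes Il1a and Il1b (median gain 0.31, of which 2 regions without overlap), followed by 9 at Slc20a1 and 8 at Zfp106. The longest lower run had 8 regions at chr2:128444182-128545196, between genes, with a median gain of −0.57.

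Median gains of 1 Mb bins with at least 20 tested regions ran from −0.19 at 117 to 118 Mb to 0.21 at 121 to 122 Mb. Of these 12 bins 4 were negative, and on the rest of the chromosome 50 of 116 were, between −0.67 and 0.19. The share of regions without overlap was highest at 120 to 121 Mb (35.9%), 121 to 122 Mb (35.6%), 118 to 119 Mb (35.2%) and 129 to 130 Mb (34.4%), and lowest at 125 to 126 Mb (17.8%). The bin at 123 to 124 Mb had 3 regions, of which 1 was tested.

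The median gain had opposite signs at gene starts and in gene bodies. The 148 tested regions at gene starts had a median gain of 0.31, against 0.25 at gene starts on the rest of the chromosome and 0.24 overall. Without KO replicate 3 these were 0.37, 0.34 and 0.30. Of the 148 regions, 37 ranked lower and 111 higher. In the lower direction 1 was without overlap (Bub1b, 0.676%, against 1.53% over all chromosomes). In the higher one 37 were (25%, against 17.7% over all chromosomes). The 325 regions in gene bodies had a median gain of −0.11 (−0.01 on the rest of the chromosome), and 54 of them were lower and 52 higher without overlap. The 281 between genes had −0.03 (−0.04), with 44 and 29. Gene bodies had the highest share without overlap, 32.6%, against 19.5% on the rest of the chromosome and 19.7% of gene-body regions over all chromosomes. Between genes it was 26.0%, against 19.5% of such regions over all chromosomes. The share of a list's intervals at gene ends was itself 13.3% to 13.5% for WT and 13.6% to 14.2% for KO, and was higher in every KO list than in any WT list. With this share as a covariate, the gain at the Eif2ak4 start went from 0.89 to 1.94, at B2m from −0.55 to 1.40, at Pak6 from 0.47 to 0.61 and at Bcl2l11 from 0.39 to 0.43. That at Bub1b was −2.16 in both fits. As the share separated the genotypes fully in these 6 libraries, its part and that of genotype cannot be told apart in such a fit.

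Of the 184 protein-coding genes that start in the stretch, 149 had a tested region at the start, 34 of them sharing it with a neighbour. None of these regions was called (limma, adjusted p below 0.05). Of the genes, 40 ranked lower and 109 higher in KO, with a median gain of 0.33, and 1 lower and 33 higher were without overlap. The gene groups below were drawn up with earlier results of these data known. They hold 5 to 14 tested genes each, and their counts without overlap stand beside the 25% of gene-start regions of the stretch, and 17.7% of all, that were higher without overlap. For the lower direction these shares were 0.676% and 1.53%.

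Of 13 genes of cell division and the checkpoint, 4 ranked lower and 9 higher, with a median gain of 0.16, and beside Bub1b only Cdan1 (0.64 ± 0.37), the gene mutated in congenital dyserythropoietic anaemia, was without overlap. Bub1b and Bub1 held the lowest and the highest gain of the group. The start that Nusap1, a spindle protein gene, shares with Oip5 ranked 328, 2796 and 702 in WT and 2278, 3716 and 225 in KO, with a gain of −0.52 ± 1.21. It overlapped despite a high rank in all libraries. The kinetochore gene Knl1 (0.14 ± 0.39), the condensin gene Ncaph (0.08 ± 0.29) and the anaphase-promoting complex gene Anapc1 (−0.19 ± 0.52) lay within their errors of 0. The 5 genes with a CHR shown above thus had gains of −2.16 (Bub1b), −0.52 (Oip5), 0.14 (Knl1), 0.32 (Ckap2l) and 2.47 (Bub1).

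Of 13 genes listed under DNA repair, replication and chromatin, 6 ranked lower and 7 higher, with a median gain of 0.14. The list includes Chp1 (0.48 ± 0.34), the exchanger partner named above, which does none of these. Without it 6 of 12 ranked lower and 6 higher, with a median of 0.04. The lowest were Wdr76 (−0.64 ± 0.43) and the Trp53bp1 start (−0.47 ± 0.86), and the highest of the 12 were Gabpb1 (0.47 ± 0.28), a subunit of the factor GABP, and Bahd1 (0.40 ± 0.29), a heterochromatin protein gene. Only these 2 were without overlap. Trp53bp1 thus had a higher-ranked inner region and a start whose ranks overlapped.

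Of 8 genes listed under stress kinases and cell death, 1 ranked lower and 7 higher, and 4 of the latter were without overlap. The list is wider than its name, as Ell3 and Usp8 below show. The median gain was 0.52, against 0.33 over all 149 genes. Eif2ak4 (0.89 ± 0.49) and Ell3 (0.57 ± 0.29), an elongation factor gene, were the highest, and Tmem127 (−0.40 ± 0.58) and the deubiquitinase gene Usp8 (0.09 ± 0.55) the lowest. The Bmf start, of a BH3-only death gene like Bcl2l11, ranked 41651.5, 48850 and 50865 in WT and 26922, 31832 and 37779 in KO, with a gain of 0.56 ± 0.30. Chac1, a glutathione-degrading enzyme of the ATF4 pathway downstream of Eif2ak4, ranked 17820, 11343 and 12758 in WT and 9352, 10889 and 8442 in KO. Its KO ranks were all better, with a gain of 0.53 ± 0.41.

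Of 17 epithelial kinase, junction, membrane and barrier genes, 12 were tested, and 1 ranked lower and 11 higher, with a median of 0.37 and 4 without overlap. The highest were Prom2 (0.81 ± 0.40), a membrane protrusion protein gene, and Dusp2 (0.73 ± 0.33), a MAP kinase phosphatase gene. Snap23 (−0.37 ± 0.45), of vesicle fusion, and Mall (0.00325 ± 0.33) were the lowest. Mal, the gene of an apical sorting protein, ranked 65088, 65115 and 69664 in WT and 42700, 38251 and 46964 in KO. No region was found at the starts of Ppp1r14d, Capn3, Tgm5 and Tgm7, and Sord had one in 2 libraries. Prom2, Mal, Pak6 and Rhov were the 4 without overlap.

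Of 10 genes of antigen presentation, cytokines and myeloid cells, 5 were tested, 2 lower and 3 higher, none without overlap, with a median of 0.04. Sppl2a (0.54 ± 0.58) and Il1a (0.35 ± 0.28) were the highest, and B2m and Trim69 (−0.22 ± 0.31) the lowest. Plcb2, Hdc, Il1b and Sirpa had no region at the start. Of 10 genes of stroma, matrix, vessel and neuron, 7 were tested, 2 lower and 5 higher, with a median of 0.24 and 2 without overlap in the higher direction. The highest were Myef2 (1.24 ± 0.42) and the matrix gene Fbln7 (1.10 ± 0.43), and the lowest Fbn1 (−0.05 ± 0.25), the fibrillin gene, and Map1a (−0.01 ± 0.45). Slc24a5, Slc12a1 and Pdyn had no region. Of 14 housekeeping genes, 5 ranked lower and 9 higher, with a median of 0.35 and 3 without overlap. Hypk, which shares its start region with Serinc4, ranked 5068, 3095 and 4847 in WT and 1312, 1398 and 1761 in KO (1.52 ± 0.61), and Stard7 had the lowest gain (−0.79 ± 0.67). The housekeeping median lay near that of all 149 genes.

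**Figure D4:**
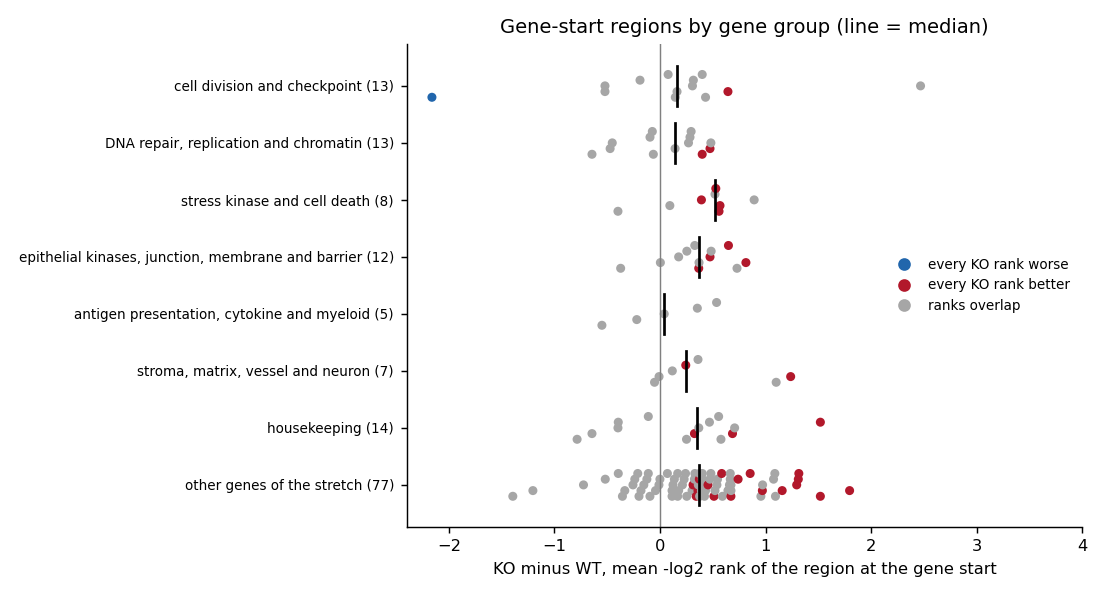
Gain (−log2 rank, horizontal axis) of the tested region at each gene start, by gene group with the number of genes tested, and the group median as a line. Blue and red points are starts at which every KO rank was worse or better, and grey points overlap. The group of DNA repair, replication and chromatin includes Chp1. All group medians are above 0, between 0.04 and 0.52, and Bub1b is the one blue point.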

How the data were processed

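ATAC-seq peak lists of 6 mouse urothelial libraries were used, 3 Stag2-WT and 3 Stag2-KO, 1 list per library. Build mm10 and the tool DiffBind are named per the submitters' processing notes. Names of an aligner and a peak caller were not given in the sources used here. Each peak in the lists that the authors deposited has a fold enrichment (a ratio to local background) and, as −log10, its p-value and q-value. The authors also deposited a display score, which was not used, and the position of the summit. Folds and p-values depend on depth, and the number of reads is unknown, so values were compared by rank within a list. KO replicate 1 has no peak under a −log10 p of 3.00, and the others reach 2.00.

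Peaks with equal ends were reduced to 1 interval with the highest fold, the 100000 intervals of highest fold were kept per library, and all were merged at 1 bp. Ties at the limit were ordered by −log10 p and position, which left out 1228 intervals of equal fold in WT replicate 3, 54 in KO replicate 3 and 1 in KO replicate 1. Regions with an interval in at least 3 libraries were fitted by limma 3.58.1 in R 4.3.3 (trend, moderated variances, all 6 libraries, no covariate, Benjamini-Hochberg adjustment, threshold 0.05). Per-library shares were compared by exact sign-flip tests, two-sided. Scripts ran in Python 3.11.15 with pandas 2.3.3, NumPy 2.4.6 and matplotlib 3.10.9. Merging and the fit were tested on simulated data, and merging was also checked with bedtools 2.31.1.

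Gene spans and start sites came from RefSeq (GRCm38.p6). Of the 184 genes of the stretch, 14 have no entry in the promoter table, and both ends of their span were used. Exons and UTRs were not used here. The length of chromosome 2 was taken to its last gene or region, 182.001 Mb.

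The titles give the same replicate numbers to both genotypes. The correlations of same-numbered libraries' deviations from their genotype means were 0.105, 0.557 and 0.401, all above 0.1, so a fit with the replicate block is given where it changes a call. The titles do not say what a number stands for, and WT replicate 1 correlated most with KO replicate 3, at 0.318.

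The stretch, the gene groups and the named regions were chosen with earlier results of these data known. Named were the start regions of the 5 genes in the definition and the lowest region inside Eif2ak4, the 2 highest and lowest genes per group, the 5 highest and lowest regions without overlap, the 3 of best mean rank, every called region, the 3 best of each genotype alone and those at the boundaries. Of the regions of WT alone, 1 is not reported here. Other genes and regions that the text gives values for were chosen after their values were seen. Alternatives were ranking by −log10 p, lists of 50000 or whole lists, linear ranks, other requirements on the number of libraries, fixed windows around the summit, the replicate block, the gene-end share as covariate, and each library left out. Shares without overlap under these settings, windows over all chromosomes and the likeness of KO replicate 3 by window were added after seeing the data.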

Additional observations from a re-analysis of the deposited data

How the results depend on the processing

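The higher interval density and gene-end share of the stretch kept their direction in 6 of 6 libraries with lists of 50000, whole lists and, for the share, 1000 bp windows. With 1 library left out they ranged from 15.3 to 16.4 per Mb and from 5.49 to 5.68 percentage points, where 0.0625 is the smallest p that 5 libraries allow. The counts of called regions (limma) did not hold. Over all regions, 12 higher and 9 lower calls became 68 and 23 ranked by −log10 p, 2 and 2 with lists of 50000, 28 and 20 with whole lists, 0 and 1 with no filter on the number of libraries, 0 and 0 with an interval in all 6 libraries, 16 and 16 with the replicate block, and 0 and 0 with the gene-end share as covariate. At an unadjusted p below 0.05 the settings without a call still had 6760 higher regions (no filter), 4805 and 4463 (all 6 libraries), and 2749 and 1969 (covariate). Leaving out 1 library gave 1 to 841 higher and 1 to 1583 lower calls, the highest without KO replicate 3 in both directions.

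The counts in the stretch come from the contrast that chose it and describe it only. There, 2 higher calls and 1 lower call became 3 and 2 by −log10 p and 4 and 1 with whole lists. Brackets below give regions at an unadjusted limma p below 0.05 among those tested in the stretch, against all tested regions. Calls were 0 and 0 with lists of 50000 (37 and 48 of 410, against 3359 and 3730 of 51841). Linear ranks gave 3 and 0 (lower 90 of 754, against 7940 of 100565). With no filter they were 0 and 0 (73 and 83 of 1040, against 6760 and 6614 of 138957). With all 6 libraries they were 0 and 0 (44 and 51 of 468, against 4805 and 4463 of 66113). Fixed windows around the summit gave 1 and 0 (lower 95 of 754, against 7748 of 100161). The replicate block gave 2 and 0 (lower 122 of 754, against 11375 of 100565). The covariate gave 0 and 0 (43 and 30 of 754, against 2749 and 1969 of 100565). Leave-one-out gave 0 to 10 higher and 0 to 21 lower. The filters and shorter lists test fewer regions, and for the other settings the cause was not tested. The second lower call by −log10 p was the Bub1b start. The replicate block changed no other call named in the text.

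The difference in median gain, 0.0017, stayed within the spread between libraries under every setting but one, and leave-one-out gave −0.062 to 0.081, the latter without WT replicate 1. The share of regions lower in KO was 53.3% with whole lists, where it was 53.0% on the rest of the chromosome, and 40.8% to 54.4% with 1 library left out. The share without overlap was 20.9% with no filter (14.2% on the rest of the chromosome) and 25.6% with an interval in all 6 libraries (18.3%). With 1 library left out, where fewer ranks could overlap, it was 31.3% to 49.3% (23.1% to 43.9%). Over 26 named regions and 351 values under the alternatives, 14 values in 6 regions changed sign: the B2m and Blvra starts, the region 272887 bp from Thbs1, the nearest inside the upper edge and both nearest outside the edges. Gains of 14 of 26 named regions moved by over 1.5 times or changed sign by −log10 p, and 14 with the covariate (the Trp53bp1 inner region from 2.41 to 0.34, the Ubr1 inner region from −2.97 to −0.97). Without KO replicate 3 it was 5 of 23.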

Other observations

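The regions called in the stretch once KO replicate 3 was left out add sites that the comparison of all 6 libraries did not call, and they are given as values. The lowest were the Ubr1 inner region (gain −3.59 without KO replicate 3), that 66710 bp from Thbs1 (−3.25) and one at chr2:122731442-122731862, 6643 bp from Bloc1s6 (−3.11). Inner regions of Tmem87b (−2.78), Tgm7 (−2.36), Ino80 (−1.55) and Anapc1 (−1.48) were also lower. Higher were the Bub1 start (3.41), the Secisbp2l start (1.83) and the Inafm2 start (0.91), an inner region of Sirpa (1.61) and 2 inner regions of Pla2g4e (2.55 and 1.49). Secisbp2l thus had a higher-ranked start and, with all 6 libraries, the inner region of lower rank given above. With 2 KO libraries the spread of KO rests on 1 pair.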
